A study of Mus musculus with 160 samples.

Results

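The genes described here are the 6 CC chemokines *Ccl2*, *Ccl7*, *Ccl8*, *Ccl12*, *Ccl3* and *Ccl4* and the 2 chemokine receptors *Ccr1* and *Ccr2*, measured by RNA sequencing in the distal colon of 160 mice. They were chosen by name, through the Ensembl identifiers in the deposited count tables, and are 8 of the 39179 genes listed in each table. All 8 were found.

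The samples came from 4 lines of whole-body knockout mice, each compared with wild-type littermates from crosses of heterozygous parents. The *Nckap1l* line, called HEM1 in the labels, had 16 knockout and 15 wild-type samples, and the *Dock2* line had 18 and 24. The *Gpsm3* line had 20 of each genotype, and the *Dok3* line had 26 and 21. The first 3 lines were on the C57BL6/J background and the *Dok3* line on the 129 background. The labels describe dextran sodium sulfate (DSS), a polymer that injures the colonic epithelium, in drinking water for 5 days followed by plain water. By the labels the DSS concentration was 3% for the *Dock2* and *Gpsm3* lines and 3.5% for the *Dok3* line, with 5 days of water and collection on day 10. The labels give no concentration for the *Nckap1l* line, where 7 days of water led to collection on day 12. The study's methods describe a lower concentration for *Nckap1l* mice and, for an earlier round of *Dok3* mice, a lower one than the labels give, without saying which samples came from that round. No label says which mice drank DSS and which did not, so treated and untreated mice are pooled in every group, and a difference between groups in the share treated cannot be told apart from a difference in genotype or sex. Females were 4 of the knockout and 8 of the wild-type mice in the *Nckap1l* line, 8 and 12 of those in the *Dock2* line, and by label 0 in the remaining lines.

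CC chemokines are small secreted proteins that bind G protein-coupled receptors on leukocytes and direct their movement into tissue. *Ccl2*, *Ccl7*, *Ccl8* and *Ccl12* are monocyte chemoattractant proteins, and *Ccr2*, the receptor for *Ccl2*, *Ccl7* and *Ccl12*, is carried by inflammatory monocytes and is needed for their exit from bone marrow. *Ccl3* and *Ccl4* are macrophage inflammatory proteins made by activated myeloid cells, and *Ccr1* is a receptor for *Ccl3* and *Ccl7* on monocytes and neutrophils. In the colon, monocytes that enter through *Ccr2* become resident macrophages at rest, and many more enter during DSS colitis.

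The total count on genes was between 4344988 and 19993833 per sample, with a median of 15989625.5, so that 3 counts, taken as the detection limit, corresponded to between 0.150 and 0.690 CPM (counts scaled to library size). Colonic epithelial markers were present throughout, with a summed level of 1437 to 13812 CPM led by *Krt8*. The targeted gene was lower in the *Gpsm3* knockout samples, with a median of 0.567 CPM against 3.16 (log2 fold change -2.06 ± 0.28 (SE), adjusted p = 1.0e-04, edgeR). The log2 fold changes of the targeted gene in the other lines, -1.09 ± 0.41 for *Nckap1l*, -0.62 ± 0.17 for *Dock2* and -0.48 ± 0.39 for *Dok3*, did not pass the test, with adjusted p = 1.00, 0.210 and 1.00. In the *Dok3* line, 5 samples labelled male had the female pattern of *Xist* and Y-linked transcripts. Markers of skin such as *Krt1* summed to at least 1108 CPM in 32 samples and to at most 64.97 CPM in the others, and these 32 were 7 knockout and 8 wild-type samples of the *Nckap1l* line, 1 and 4 of the *Dock2* line, 2 and 1 of the *Gpsm3* line and 4 and 5 of the *Dok3* line.

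The chemokine genes lie in a cluster on chromosome 11 and the receptor genes in a cluster on chromosome 9 (GRCm38). From low to high coordinates, *Ccl2* (chr11:82035571-82037453), *Ccl7* (chr11:82045712-82047525), *Ccl12* (chr11:82101845-82103400) and *Ccl8* (chr11:82115185-82116799) are on the plus strand. *Ccl3* (chr11:83647844-83649355, minus strand) and *Ccl4* (chr11:83662584-83664683, plus strand) lie further along. *Ccr1* (chr9:123962124-123968692, minus strand) and *Ccr2* (chr9:124101950-124113557, plus strand) are on chromosome 9. The annotated gene *Gm17268* overlaps *Ccl2* on the opposite strand, with a median of 0 CPM and at most 0.133 CPM in any sample.

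The 250 bases before the start site are shown for 4 of the 8 genes. These are the genes whose window was available and held a match to a motif sought. They are from RefSeq (GRCm38.p6), 5′ to 3′ in the direction of the gene. Capitals mark matches, on either strand, to a TATA box (TATAAA), the PU.1 core (GAGGAA, or TTCCTC on the opposite strand) and the NF-kB consensus. The windows are chr11:82101595-82101844 for *Ccl12*, chr11:82114935-82115184 for *Ccl8*, chr11:83649379-83649628 (minus strand) for *Ccl3* and chr9:123968693-123968942 (minus strand) for *Ccr1*.
Ccl12: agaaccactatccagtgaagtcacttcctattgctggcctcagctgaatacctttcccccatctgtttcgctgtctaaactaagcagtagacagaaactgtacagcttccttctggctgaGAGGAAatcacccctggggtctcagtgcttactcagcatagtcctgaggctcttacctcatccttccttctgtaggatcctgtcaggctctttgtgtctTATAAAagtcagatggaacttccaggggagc
Ccl8: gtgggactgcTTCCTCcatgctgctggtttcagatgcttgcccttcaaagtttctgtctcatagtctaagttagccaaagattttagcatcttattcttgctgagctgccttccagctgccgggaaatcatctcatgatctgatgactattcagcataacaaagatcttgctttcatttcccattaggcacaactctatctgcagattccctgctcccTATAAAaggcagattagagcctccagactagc
Ccl3: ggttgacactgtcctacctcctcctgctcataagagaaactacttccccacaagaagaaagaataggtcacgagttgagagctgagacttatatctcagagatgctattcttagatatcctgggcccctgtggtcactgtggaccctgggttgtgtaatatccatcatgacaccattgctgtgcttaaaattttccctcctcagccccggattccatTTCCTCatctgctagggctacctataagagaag
Ccr1: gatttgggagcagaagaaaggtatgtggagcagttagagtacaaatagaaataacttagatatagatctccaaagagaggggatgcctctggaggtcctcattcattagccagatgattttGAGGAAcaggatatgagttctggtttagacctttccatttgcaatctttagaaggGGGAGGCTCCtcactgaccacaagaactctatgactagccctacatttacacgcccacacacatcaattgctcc

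The RefSeq table of promoters held 5 of the 8 genes, these 4 and *Ccr2*, and not *Ccl2*, *Ccl7* or *Ccl4*. TATAAA began 31 bases before the start of *Ccl12* and 32 bases before the start of *Ccl8*, and was present in 12.4% of the 32817 windows of the same length in the table. The PU.1 core was present in 4 of the 5 windows, the ones shown, against 23.3% of all windows. It began 130 bases before the start in *Ccl12*, 240 in *Ccl8*, 33 in *Ccl3* and 129 in *Ccr1*. The NF-kB consensus was found in the *Ccr1* window, 74 bases before the start, and in 7.25% of all windows. The AP-1 motif TGANTCA and the interferon-stimulated response element matched in none of the 5 windows and in 6.75% and 2.97% of all windows. The *Ccl12* and *Ccl8* windows were 55.6% identical when aligned, the highest of the 10 pairs. No match overlaps another, and the *Ccr2* window (chr9:124101933-124102182, plus strand) held none of these motifs. That window precedes the RefSeq start site but lies mostly inside the *Ccr2* coordinates given above. The bases upstream of that annotated start were not searched beyond the window.

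Per kilobase of exon, *Ccl8* had the highest level of the 8 genes, with a median over all samples of 17.6 CPM per kilobase. *Ccr2* and *Ccl7* followed with 4.09 and 4.07, *Ccr1* with 3.63, *Ccl2* with 2.80 and *Ccl12* with 2.10. *Ccl3* and *Ccl4* were lowest, with medians of 0.568 and 0.286 CPM per kilobase. In each of the 8 groups *Ccl8* was highest and *Ccl3* and *Ccl4* were lowest, while the order of the others varied: *Ccl7* (8.93) and *Ccl2* (7.10) were above *Ccr2* (3.53) in *Nckap1l* knockouts, and *Ccr2* (4.19) was above *Ccr1* (3.52) and *Ccl7* (3.38) in *Dock2* wild-type samples, in median CPM per kilobase. In CPM, not corrected for length, the range within a gene was wide. *Ccl3* ran from 0 to 203 CPM with a median of 0.435, and *Ccl4* from 0 to 49.9 CPM with a median of 0.189. *Ccl4* was at 0 in 24 samples and under 3 counts in 73, and *Ccl3* at 0 in 7 and under 3 counts in 28, so that differences among such samples were not detectable at this depth. *Ccr1* and *Ccr2* had at least 3 counts in every sample, with medians of 10.3 CPM (3.38 to 165) and 27.6 CPM (5.27 to 156).

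Among the ligands of *Ccr2*, *Ccl2* had group medians between 1.84 CPM in *Gpsm3* wild-type samples and 8.08 CPM in *Nckap1l* knockout samples. In the *Nckap1l* line *Ccl2* ran from 0.968 to 35.3 CPM in knockout samples (median 8.08) and from 1.05 to 52.4 CPM in wild-type samples (median 5.43). In the *Dock2* line it ran from 0.595 to 15.2 CPM (median 3.96) and from 0.560 to 60.4 CPM (median 2.99). In the *Gpsm3* line the ranges were 0.382 to 22.5 CPM (median 2.71) in knockout and 0.665 to 10.1 CPM (median 1.84) in wild-type samples, and in the *Dok3* line 0.5001 to 53.0 CPM (median 2.75) and 0.580 to 12.7 CPM (median 3.54). Knockout and wild-type samples overlapped in every line, and the highest values came from single samples.

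*Ccl7*, whose gene adjoins *Ccl2*, had medians of 7.16 CPM (1.25 to 41.5) and 5.99 CPM (1.46 to 40.5) in knockout and wild-type samples of the *Nckap1l* line. The medians were 3.78 CPM (0.298 to 13.2) and 2.70 CPM (0.439 to 60.7) in the *Dock2* line, 2.52 CPM (0.518 to 20.95) and 2.02 CPM (0.387 to 10.7) in the *Gpsm3* line, and 2.87 CPM (0.214 to 34.3) and 2.59 CPM (0.414 to 12.1) in the *Dok3* line. *Ccl12* binds the same receptor. Its medians were 2.36 and 1.33 CPM in knockout and wild-type samples of the *Nckap1l* line, 1.30 and 1.19 CPM in the *Dock2* line, 1.74 and 1.02 CPM in the *Gpsm3* line and 0.876 and 0.865 CPM in the *Dok3* line, and its highest value was 7.45 CPM in an *Nckap1l* knockout sample.

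*Ccl8* had its highest values in the *Nckap1l* line, from 1.99 to 231 CPM (median 29.2) in knockout samples and from 1.87 to 84.1 CPM (median 12.3) in wild-type samples. In that line 7 of 16 knockout and 8 of 15 wild-type samples had skin RNA. The medians were 8.09 CPM (1.40 to 28.9) and 6.38 CPM (1.32 to 24.96) in knockout and wild-type samples of the *Dock2* line, and 11.5 CPM (0.573 to 71.0) and 8.12 CPM (1.53 to 37.6) in the *Gpsm3* line. In the *Dok3* line they were 3.77 CPM (0.572 to 54.6) and 10.5 CPM (0.697 to 64.3). The 9 *Dok3* samples with skin RNA had a *Ccl8* median of 49.9 CPM (6.39 to 64.3), against 3.08 CPM (0.572 to 26.5) in the other 38 samples of that line, and the part of skin tissue in *Ccl8* was not tested.

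Of the 2 receptors, *Ccr1* had group medians that differed less than those of *Ccr2*. *Ccr2* was between 19.9 CPM in *Nckap1l* wild-type samples and 35.4 CPM in *Gpsm3* knockout samples, and *Ccr1* between 9.71 CPM in *Nckap1l* wild-type samples and 11.6 CPM in *Nckap1l* knockout samples. *Ccl3* medians were between 0.308 and 0.700 CPM and *Ccl4* medians between 0.129 and 0.375 CPM in the 8 groups. In these tissue samples, fewer cells that make a transcript and less of it per cell cannot be told apart.

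**Figure D1:**
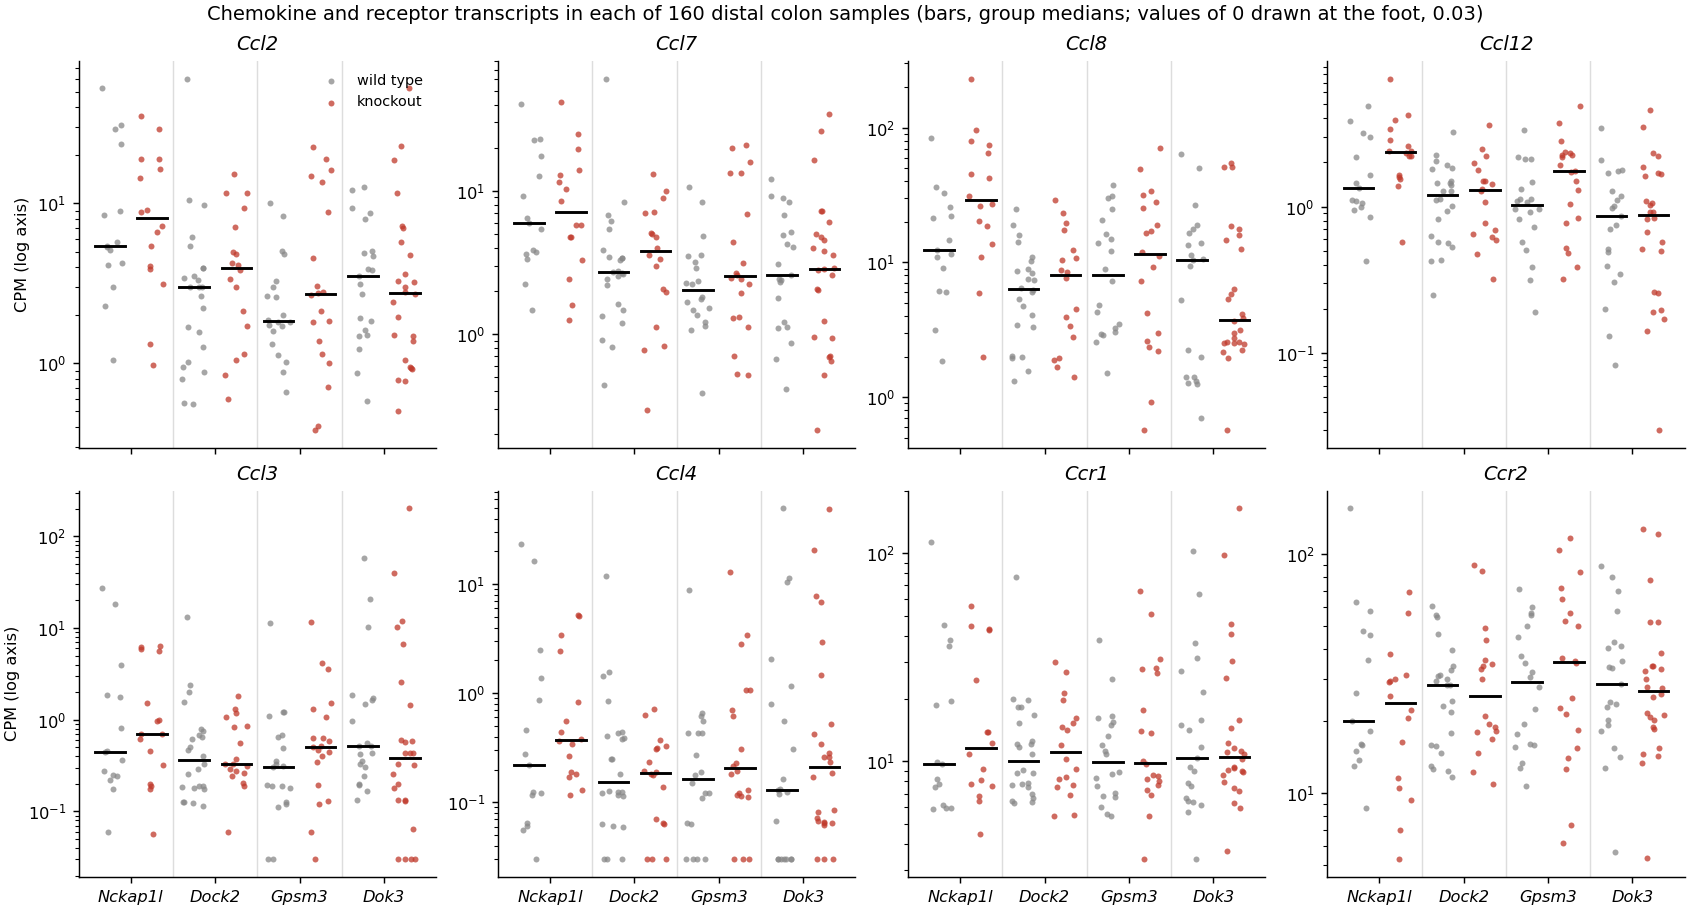
Level of each of the 8 transcripts in each of 160 samples, in CPM on a log axis, by line (x axis) and genotype (grey, wild type; red, knockout), with group medians as black bars. Within every line the 2 genotypes overlap for every gene, and single samples lie far above their group, as in *Dok3* knockout *Ccl3* (highest 203 CPM, median 0.379 CPM).

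The first comparison asked whether loss of each gene changed the level of these transcripts. In none of the 4 lines did a member pass the edgeR quasi-likelihood test, fitted to all genes of a line, at an adjusted p under 0.05. In the *Nckap1l* line 0 of 7 members tested were called, against 0 of 17947 genes tested (0%). In the *Dock2* line 0 of 6 were called, against 6 of 17648 genes (0.034%, of which higher 0.00567% and lower 0.0283%), in the *Gpsm3* line 0 of 6, against 1 of 17560 (0.00569%), and in the *Dok3* line 0 of 6, against 0 of 17612 (0%). *Ccl4* did not pass the filter on low counts in any line, nor did *Ccl3* outside the *Nckap1l* line. DESeq2 called 0 members in each line, against 0.117%, 0.397%, 0.0228% and 0.017% of genes in the *Nckap1l*, *Dock2*, *Gpsm3* and *Dok3* lines. With limma-voom 0 members were called in each line, against 0.00569% of genes in the *Gpsm3* line and 0% in the others. At an unadjusted p under 0.05, edgeR gave 1 member in the *Nckap1l* line, 3 in the *Gpsm3* line and 0 in the *Dock2* and *Dok3* lines, while 807, 854, 900 and 386 of all genes tested reached it in the *Nckap1l*, *Gpsm3*, *Dock2* and *Dok3* lines.

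The single member in the *Nckap1l* line was *Ccl8*, with a log2 fold change of 1.32 ± 0.52 (SE, 95% interval 0.25 to 2.39, unadjusted p = 0.0174, adjusted p = 1.00). Adding 2 surrogate variables gave 1.36 ± 0.24 with an adjusted p of 0.0040 and called *Ccl8* alone among the members, against 93 of 17947 genes (0.518%). Within the first run of sample numbers *Ccl8* had 2.90 ± 0.48 (adjusted p = 0.148). The direction turned where the skin-bearing samples were left out (-0.68 ± 0.66, adjusted p = 0.600) and within the second of the 3 runs of sample numbers (-0.35 ± 0.90, adjusted p = 0.984). Without those samples the adjusted p of every member in this line was at least 0.360, and *Ccl7* went from 0.00 to -1.74 and *Ccl3* from -0.79 to -3.03. *Ccr2* had a log2 fold change of -0.65 ± 0.40, *Ccl12* of 0.58 ± 0.32, and *Ccl2*, *Ccl7* and *Ccr1* between -0.21 and 0.00. Leaving out wild-type replicate 10, which led 7 members in its group, gave 1.83 for *Ccl8*, 0.22 for *Ccl2*, 0.37 for *Ccl7* and 0.37 for *Ccr1*, with an adjusted p for *Ccl8* of 0.450.

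In the *Dock2* line the estimates of the members that passed the count filter lay close to 0. *Ccl8* had the highest log2 fold change, 0.29 (95% interval -0.37 to 0.96), and *Ccl7* the lowest, -0.18 (-1.04 to 0.69). For *Ccr2* the value was 0.13 (-0.32 to 0.57) and for *Ccl12* 0.01 (-0.47 to 0.50). Wild-type replicate 13 held the highest *Ccl2* and *Ccl7* of the line, and without it *Ccl2* went from -0.04 to 0.58, *Ccl7* from -0.18 to 0.51 and *Ccr1* from -0.07 to 0.24, with adjusted p of at least 0.875.

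In the *Gpsm3* line the 6 members tested had positive estimates, with a median log2 fold change of 0.59 against 0.00 over all genes tested. Those of *Ccl2* (1.08 ± 0.44, unadjusted p = 0.0193), *Ccl7* (1.04 ± 0.43, p = 0.0211) and *Ccl12* (0.62 ± 0.30, p = 0.0442) reached an unadjusted p under 0.05 and an adjusted p of 0.936. *Ccr1* had 0.56 ± 0.31, *Ccl8* 0.50 ± 0.47 and *Ccr2* 0.41 ± 0.31. The 6 neutrophil markers tested in this line also had positive estimates, with a median of 0.89 and 0 called. So did 6 of 6 striated muscle markers tested (median 1.27), 7 of 7 B cell markers (0.58), 7 of 7 T cell markers (0.33), 11 of 12 macrophage markers (0.28) and 9 of 10 monocyte markers (0.27), with 0 called, and the part of these lists in the members' estimates was not tested beyond the neutrophil score. In a fit with a neutrophil score (the mean log2 CPM of the marker list) as a covariate, *Ccl2* had 0.30 ± 0.26, *Ccl7* 0.33 ± 0.25 and *Ccl12* 0.40 ± 0.28.

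In the *Dok3* line *Ccl2* had a log2 fold change of 0.50 ± 0.45, *Ccl7* of 0.48 ± 0.44 and *Ccl8* of -0.23 ± 0.50, with adjusted p = 1.00. Knockout replicate 17 had 203 CPM of *Ccl3* and 165 CPM of *Ccr1*. Without it *Ccl2* went to -0.0025, *Ccl7* to 0.14, *Ccr1* from 0.20 to -0.21 and *Ccr2* from 0.03 to -0.12. *Ccl3* and *Ccl4* could be fitted in these lines without the count filter, where *Ccl4* in the *Dock2* line had -1.65 ± 0.59 (adjusted p = 0.475) and *Ccl3* in the *Dok3* line 1.16 ± 0.91 (adjusted p = 0.920).

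**Figure D2:**
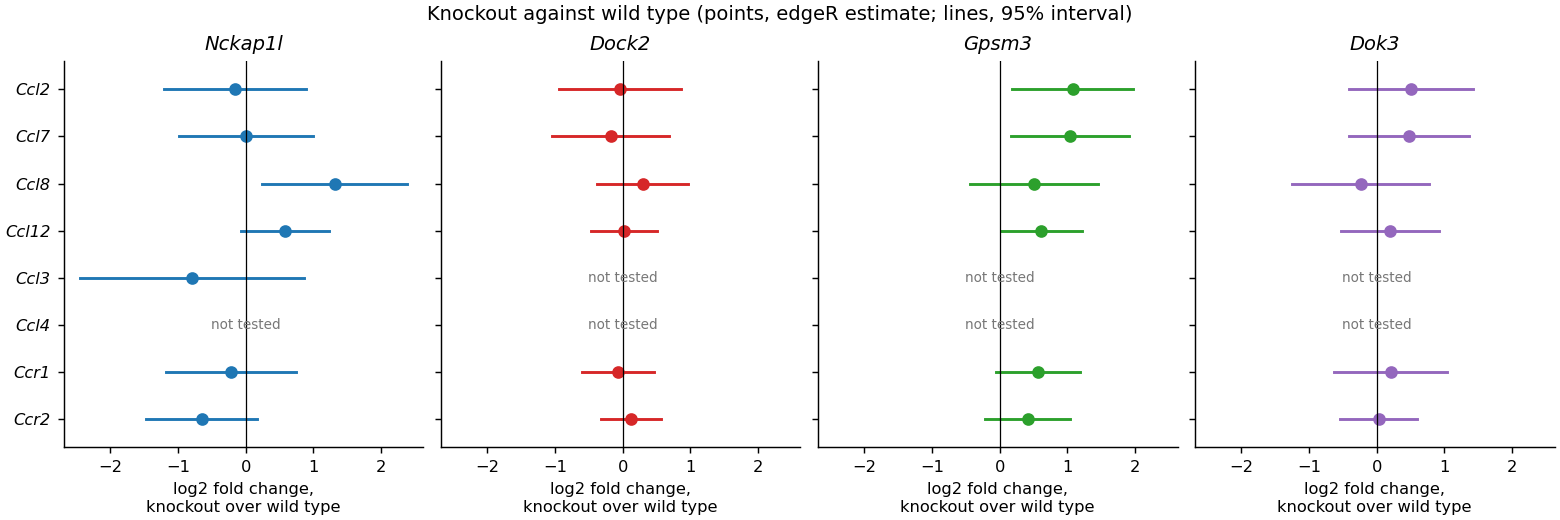
Log2 fold change of knockout over wild type for each gene (rows) in each line (panels), as edgeR estimates (points) with 95% intervals (lines). Of 25 intervals drawn, those of *Ccl8* in the *Nckap1l* line (0.25 to 2.39) and of *Ccl2*, *Ccl7* and *Ccl12* in the *Gpsm3* line lie above 0, and none passed the adjusted threshold.

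The design also allows the genotype effect to be compared between lines. In an edgeR fit of all 160 samples, 0 of 8 members had a genotype effect that differed between lines, against 137 of 19849 genes (0.69%). Of the members 0 did at an unadjusted p under 0.05, against 1127 of all genes tested, and 0 did with limma-voom. *Ccr2* had the smallest p of the 8 genes (unadjusted p = 0.109, adjusted p = 1.00).

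Other members of the same families were listed with these genes: 15 CC and CX3C chemokines, 13 receptors and decoy receptors, and 13 cytokines and regulators that act upstream of chemokine transcription. In the 4 knockout comparisons edgeR called 0 genes of these lists. Of 14 other chemokines tested in the *Nckap1l* line, 1 reached an unadjusted p under 0.05, *Ccl6* (0.60 ± 0.20, p = 0.00565). Of 12 receptors 2 did, both lower: *Ccr6*, a receptor of B cells and some T cells (-2.00 ± 0.61, p = 0.00284), and *Ccr7*, which guides lymphocytes and dendritic cells to lymph nodes (-1.44 ± 0.65, p = 0.0336). The 7 B cell markers of this line had a median log2 fold change of -2.58, 7 of 7 at an unadjusted p under 0.05 and 0 called. Of the other marker lists, edgeR called 0 genes in any of the 4 knockout comparisons.

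In the *Dock2* line *Ccr6* had -0.75 ± 0.24 (p = 0.00367) beside a B cell marker median of -0.89. The chemokines with the smallest p there were *Ccl28*, an epithelial chemokine (0.26 ± 0.11), and *Ccl24*, an eosinophil attractant (-0.58 ± 0.27), and the cytokines were *Il18* (0.24 ± 0.11) and *Osm* (-1.02 ± 0.55). In the *Gpsm3* line 12 of 12 receptors had positive estimates and 3 reached an unadjusted p under 0.05. The smallest p belonged to *Ccrl2*, an atypical receptor of myeloid cells (0.54 ± 0.23, p = 0.0233), and *Ccr7* (0.76 ± 0.33, p = 0.0254). *Tnf*, an inducer of *Ccl2* transcription, had 0.86 ± 0.40 (p = 0.0378) and *Nfkb1* 0.13 ± 0.05 (p = 0.0237), and the chemokines with the smallest p were *Ccl21a* (0.25 ± 0.13) and *Ccl19* (0.56 ± 0.29), both ligands of *Ccr7*. In the *Dok3* line 0 genes of the 3 lists reached an unadjusted p under 0.05. The smallest p there belonged to *Ccl6* (0.28 ± 0.16) and *Ccl28* (0.38 ± 0.23), to *Ccr4* (-0.24 ± 0.31) and *Ccr7* (-0.21 ± 0.30), and to *Il18* (0.21 ± 0.15) and *Tnfaip3* (0.18 ± 0.17). In the *Nckap1l* line the second chemokine was *Ccl27a* (0.47 ± 0.26), and the cytokines were *Csf1*, a macrophage growth factor (0.29 ± 0.15), and *Il6* (-1.21 ± 0.94).

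Males and females were compared within the 2 lines that held both. In the *Dock2* line *Ccr2* and its ligand *Ccl12* were lower in females. *Ccr2* ran from 10.9 to 49.1 CPM (median 18.6) in 20 females and from 11.7 to 89.8 CPM (median 33.6) in 22 males, a log2 fold change of -0.71 ± 0.22 (adjusted p = 0.0338, edgeR with genotype as a covariate). *Ccl12* ran from 0.251 to 3.20 CPM (median 0.663) in females and from 0.531 to 3.57 CPM (median 1.47) in males, a log2 fold change of -0.73 ± 0.24 (adjusted p = 0.0427). These were 2 of the 6 members tested, both lower, against 970 genes called lower among 17648 tested (5.5%) and 1721 called in either direction (9.75%, with 4.26% higher). The sexes overlapped for both genes.

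The other monocyte chemoattractants had larger estimates and did not pass the threshold. *Ccl2* had medians of 1.70 CPM (0.560 to 11.6) in females and 3.88 CPM (0.845 to 60.4) in males, with a log2 fold change of -1.30 ± 0.45 (adjusted p = 0.0539). *Ccl7* had -1.19 ± 0.43 (adjusted p = 0.0683), *Ccl8* -0.95 ± 0.33 (adjusted p = 0.0619) and *Ccr1* -0.42 ± 0.26 (adjusted p = 0.312). All 6 estimates were negative, with a median of -0.84 against 0.00 over all genes tested. Without the count filter *Ccl3* (-1.59 ± 0.47, adjusted p = 0.0381) and *Ccl4* (-2.28 ± 0.58, adjusted p = 0.0163) were the members called, while *Ccr2* and *Ccl12* had adjusted p of 0.0506 and 0.0681, against 1469 of 31297 genes called (4.69%). Wild-type replicate 13, a male, had 13.1 CPM of *Ccl3* and 11.9 CPM of *Ccl4*, and the next highest values among wild-type samples were 2.40 and 1.58 CPM.

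Both genotypes showed the order of the medians. *Ccr2* had medians of 22.1 CPM in 12 wild-type females and 30.5 CPM in 12 wild-type males, and of 18.6 CPM in 8 knockout females and 34.4 CPM in 10 knockout males. For *Ccl12* they were 0.784 and 1.43 CPM in wild type and 0.655 and 1.63 CPM in knockouts. In wild-type samples alone *Ccr2* had a log2 fold change of -0.64 ± 0.25 (adjusted p = 0.181) and *Ccl12* of -0.42 ± 0.32 (adjusted p = 0.505).

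The count of members called in this comparison moved with single samples and with the model. It was 0 without knockout replicates 1 or 3 or wild-type replicate 6, against 8.61%, 7.55% and 8.04% of all genes tested. It was 1 without knockout replicates 4, 12 or 16 or wild-type replicates 4, 11, 12, 13, 16, 18, 21 or 22, against 7.93% to 9.87% of genes. It was 4 without knockout replicates 7 or 13 or wild-type replicate 24, against 9.87%, 12.6% and 9.85%. It was 5 without knockout replicate 5, against 11.7%, and 6 without knockout replicate 6, against 10.6%, each left out alone. *Ccl3* passed the count filter in 12 of these 42 fits and was called lower in females in all 12 (-1.64 to -1.54), the fits with 5 and 6 members called included, so that 7 members were tested there. Each of these 12 left out a knockout sample and kept wild-type replicate 13, which had the highest *Ccl3* of the line. They share most samples and are not separate support, and *Ccl3* was not tested without that replicate. Without knockout replicate 12 or 16 the 1 member called was *Ccl3*. The fold change of *Ccr2* was between -0.81 and -0.62 and that of *Ccl12* between -0.91 and -0.65 over the 42 samples left out in turn, while leaving out wild-type replicate 13 took *Ccl2* to -0.66 and *Ccl7* to -0.48. DESeq2 called 5 members, against 12.2% of 17648 genes, and limma-voom 1, against 9.07%. With 2 surrogate variables 5 members were called, against 20.3%, and without the samples with skin RNA 6, against 18.3% of 17525 genes.

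Neutrophil markers also had a negative median estimate for females, though none passed the test. *Ly6g* was the most abundant of them in the *Dock2* line, with a mean of 51.1 CPM in wild-type and 55.6 CPM in knockout samples. The 10 markers summed to 22.03 to 354 CPM (median 56.4) in females and to 47.0 to 2457 CPM (median 76.2) in males, and the 7 tested had a median log2 fold change of -1.42, with 0 called. With a neutrophil score as a covariate 0 members were called, against 10.3% of 17648 genes. In that fit *Ccr2* had -0.30 ± 0.13 (adjusted p = 0.143), *Ccl12* had -0.61 ± 0.23 (adjusted p = 0.0808), and *Ccr1* turned to 0.20. The 6 striated muscle markers tested had negative estimates, with a median of -2.95 and 1 called, and the 6 skin markers positive ones, with a median of 1.43 and 0 called. Summed muscle markers had medians of 18.6 CPM in females and 15.4 CPM in males, with highest values of 547 and 8133 CPM. The part of the muscle and skin lists in the result was not tested. Of the 20 females 18 had sample numbers above those of every male, so that the order of the samples and sex cannot be told apart, nor can the share of mice that drank DSS. Of the related lists, 1 of 14 chemokines, 0 of 12 receptors and 0 of 9 cytokines were called, against 9.75% of all genes tested. The chemokine was *Ccl11*, an eosinophil attractant that was lower in females (-0.68 ± 0.19, adjusted p = 0.0199). *Chil3*, named after its value was seen, was the 1 of 10 monocyte markers called (-2.91 ± 0.71, adjusted p = 0.00752). Of 8 colonic epithelial markers 2 were called lower in females. Of all genes tested 5.5% were called lower.

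**Figure D3:**
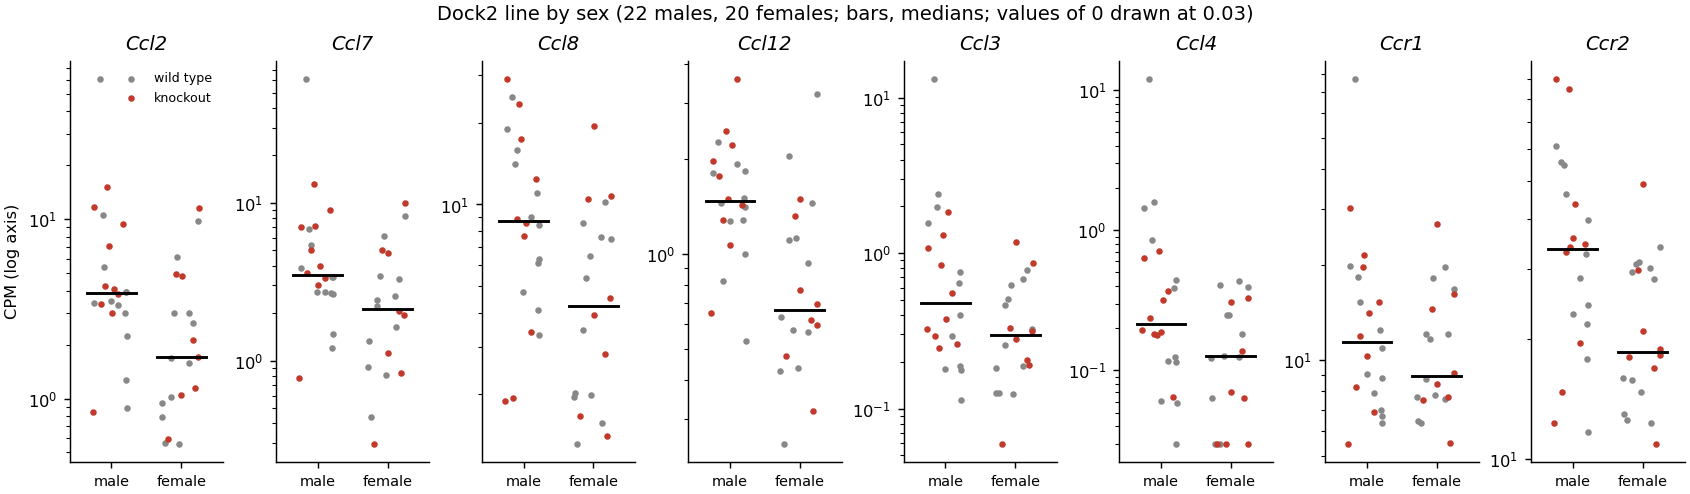
Level of each transcript in the *Dock2* line by sex, in CPM on a log axis, with 22 males and 20 females as points (grey, wild type; red, knockout) and medians as bars. The female medians lie below the male medians for all 8 genes, for *Ccr2* at 18.6 against 33.6 CPM, and the ranges overlap.

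In the *Nckap1l* line the 12 females and 19 males did not differ in any member by the test. edgeR called 0 of 7 members, against 32 of 17947 genes (0.178%, with 0.106% higher and 0.0724% lower). DESeq2 also gave 0, against 1.07% of genes, and so did limma-voom, against 0.123%. An unadjusted edgeR p under 0.05 was reached by 0 members and by 2823 of all genes tested. *Ccr2* had a log2 fold change of -0.44 ± 0.42 (95% interval -1.29 to 0.41), which includes the value of the *Dock2* line, and *Ccl12* had 0.30 ± 0.32 (-0.36 to 0.96). The difference of the sex effect between the 2 lines was not tested.

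Wild-type mice alone were used to order the lines by the level of each transcript. Of 24 pairs of neighbouring lines 0 differed at an adjusted p under 0.05, by a permutation test of log2 CPM with 100000 resamples, two-sided, and 2 did at an unadjusted p under 0.05. *Ccl7* had medians of 5.99 CPM in *Nckap1l* and 2.70 CPM in *Dock2* wild-type mice, a difference of 1.28 ± 0.44 (SE) on the log2 scale (permutation p = 0.00516, adjusted p = 0.124). *Ccl2* had 5.43 CPM in *Nckap1l* and 3.54 CPM in *Dok3* wild-type mice, a difference of 1.15 ± 0.47 (permutation p = 0.0149, adjusted p = 0.179). For *Ccr2* the order was *Gpsm3*, *Dok3*, *Dock2* and *Nckap1l*, with medians of 29.3, 28.7, 28.3 and 19.9 CPM, and for *Ccr1* it was *Dok3*, *Dock2*, *Gpsm3* and *Nckap1l*, with 10.3, 9.98, 9.90 and 9.71 CPM. Neighbours in these orders did not differ beyond their spread. Background strain, DSS concentration and day of collection vary with the line and cannot be told apart from it. The sexes and the number of samples with skin RNA also differ between the wild-type groups and were not adjusted for in this test. The share of mice that drank DSS is unknown and may differ too.

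Across the samples of a line the 8 transcripts were positively correlated. Correlations were computed from log2 CPM after each group's mean was subtracted, with the sexes pooled, in 31, 42, 40 and 47 samples of the *Nckap1l*, *Dock2*, *Gpsm3* and *Dok3* lines. All 28 pairs in each line had a positive Pearson r, with adjusted permutation p of at most 0.0112 over 112 correlations, and Spearman rho with adjusted permutation p of at most 0.0274. The median r was 0.784 in the *Nckap1l* line (0.643 to 0.966), 0.745 in the *Dock2* line (0.382 to 0.970), 0.705 in the *Gpsm3* line (0.453 to 0.965) and 0.752 in the *Dok3* line (0.506 to 0.950). The corresponding median rho was 0.790, 0.713, 0.747 and 0.724. Leaving out the 2 samples farthest from the median gave 0.734, 0.678, 0.710 and 0.752, and removing the means of the runs of sample numbers gave 0.795, 0.745, 0.711 and 0.755. The samples of a line share mice that did and did not drink DSS in unknown proportion. The share of all gene pairs that would pass the same test was not computed. As given below, many other genes were more alike to a member than most members were.

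*Ccl2* and *Ccl7* were the closest pair. Their r was 0.966, 0.970, 0.965 and 0.950 in the 4 lines, with rho between 0.940 and 0.964 and permutation p = 1e-05, the smallest that 100000 resamples can give. Without the 2 farthest samples r was between 0.936 and 0.961. Each was the gene most like the other among 17067 genes ranked. The ratio of *Ccl2* to *Ccl7* counts had a median of 1.04 over 160 samples and stayed between 0.381 and 2.33, while *Ccl2* ran from 0.382 to 60.4 CPM and *Ccl7* from 0.214 to 60.7 CPM.

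*Ccl3* and *Ccl4*, whose genes are neighbours in opposite orientation, had r of 0.936, 0.876, 0.894 and 0.939, with rho of 0.837, 0.783, 0.764 and 0.726 (permutation p = 1e-05, the smallest possible). Among the 84 samples with at least 3 counts of both, the ratio of *Ccl3* to *Ccl4* had a median of 1.59 (0.429 to 5.80). *Ccl12* had a mean r over the 4 lines of 0.51 with *Ccl4* and 0.56 with *Ccl3*, the lowest of the 28 pairs. *Ccl12*, *Ccl3* and *Ccl4* also had the lowest median levels of the members (1.13, 0.435 and 0.189 CPM). The part of low counts in these r values was not tested. The closest member to *Ccl12* was *Ccl7* (mean r 0.73). *Ccl8* and *Ccl12*, which have adjacent genes, had a mean r of 0.66 and a ratio of *Ccl8* to *Ccl12* of 7.41 (0.533 to 64.7) over 154 samples.

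Each receptor was correlated with the chemokines, *Ccr1* most with *Ccl3* (mean r 0.89) and *Ccl4* (0.87), and *Ccr2* most with *Ccl8* (0.83). The receptors had a mean r of 0.85 with each other. *Ccl2* and *Ccr2*, a ligand and its receptor, had r of 0.765, 0.761, 0.709 and 0.789 and rho of 0.778, 0.793, 0.678 and 0.703 in the 4 lines.

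**Figure D4:**
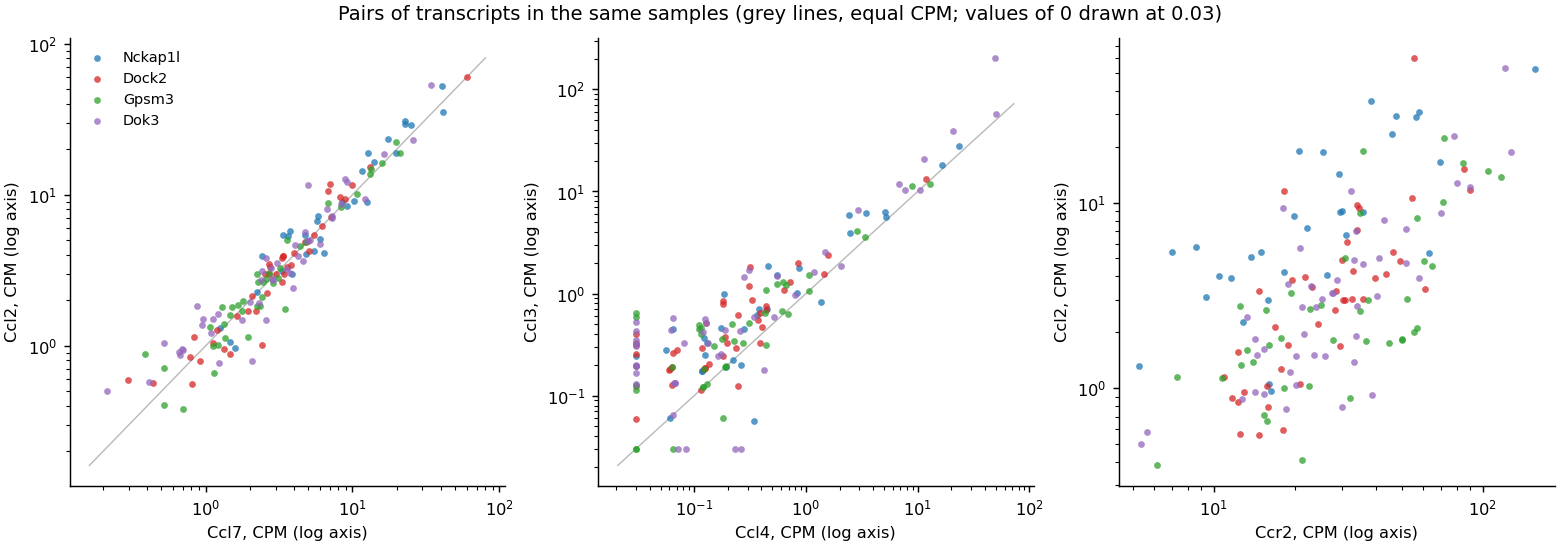
Levels of 3 pairs of transcripts in the same 160 samples, in CPM on log axes, coloured by line, with grey lines at equal CPM in the panels of *Ccl2* with *Ccl7* and *Ccl3* with *Ccl4*. Points for *Ccl2* and *Ccl7* lie along the line of equal CPM in all 4 lines (median ratio 1.04), those for *Ccl3* and *Ccl4* mostly above it (median ratio 1.59), and those for *Ccl2* and *Ccr2* are more scattered.

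The highest values of several members tended to come from the same sample. *Dock2* wild-type replicate 13 was highest of its group in 6 members, with 60.4 CPM of *Ccl2*, 60.7 of *Ccl7*, 13.1 of *Ccl3*, 11.9 of *Ccl4*, 76.7 of *Ccr1* and 24.96 of *Ccl8*. The next *Dock2* wild-type sample had 10.6 CPM of *Ccl2* and 8.29 of *Ccl7*. *Nckap1l* wild-type replicate 10 was highest in 7 members, with *Ccr2* at 156 CPM, *Ccr1* at 113 CPM and *Ccl8* at 84.1 CPM. *Gpsm3* wild-type replicate 14 was highest in 6 members and *Dok3* knockout replicate 17 in 5. In 7 of the 8 groups the sample that led the most members also had the highest level of the neutrophil gene *S100a8* in its group.

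The correlation with cell type markers depended on the list, over 384 correlations of which 320 were tested. Over 8 members, the median r with the mean log2 CPM of 10 monocyte markers was 0.876, 0.860, 0.845 and 0.848 in the *Nckap1l*, *Dock2*, *Gpsm3* and *Dok3* lines, with 12 macrophage markers 0.837, 0.802, 0.772 and 0.830, and with 10 neutrophil markers 0.852, 0.831, 0.843 and 0.839. The median rho with these 3 lists was between 0.781 and 0.878. The list of upstream cytokines, which includes *Tnf*, *Il1b* and *Il6*, gave 0.881, 0.812, 0.850 and 0.829. T cell markers gave 0.748, 0.375, 0.662 and 0.434, fibroblast markers 0.662, 0.550, 0.569 and 0.781, endothelial markers 0.635, 0.213, 0.375 and 0.727, and B cell markers 0.395, 0.103, 0.290 and 0.083. Colonic epithelial markers gave negative medians, -0.492, -0.090, -0.407 and -0.619. Mast cell markers gave 0.319, 0.529 and 0.539 in the *Nckap1l*, *Dock2* and *Dok3* lines, and striated muscle markers 0.208 in the *Nckap1l* line. The samples fell into separate clusters for the skin list in every line, and for the mast cell and muscle lists in the lines not given, so that no r was computed there.

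The members differed in which list they followed most closely. Averaged over lines, *Ccr2* had its highest r with the macrophage markers (0.92, against 0.85 with monocyte and 0.81 with neutrophil markers), and so did *Ccl8* (0.86) and *Ccl12* (0.66). *Ccr1* had r of 0.95 with monocyte and 0.94 with neutrophil markers, and *Ccl3* 0.90 and 0.91. Over all samples monocyte markers were led by *Plac8*, macrophage markers by *Lyz2* and neutrophil markers by *S100a9*. Of these lists 9 of 10, 12 of 12 and 5 of 10 genes had a median above 1 CPM. In the *Dock2* and *Gpsm3* groups *Ly6g* led the neutrophil markers. *Plac8* and *Lyz2* are also made by other cells. The difference between these correlations was not tested.

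**Figure D5:**
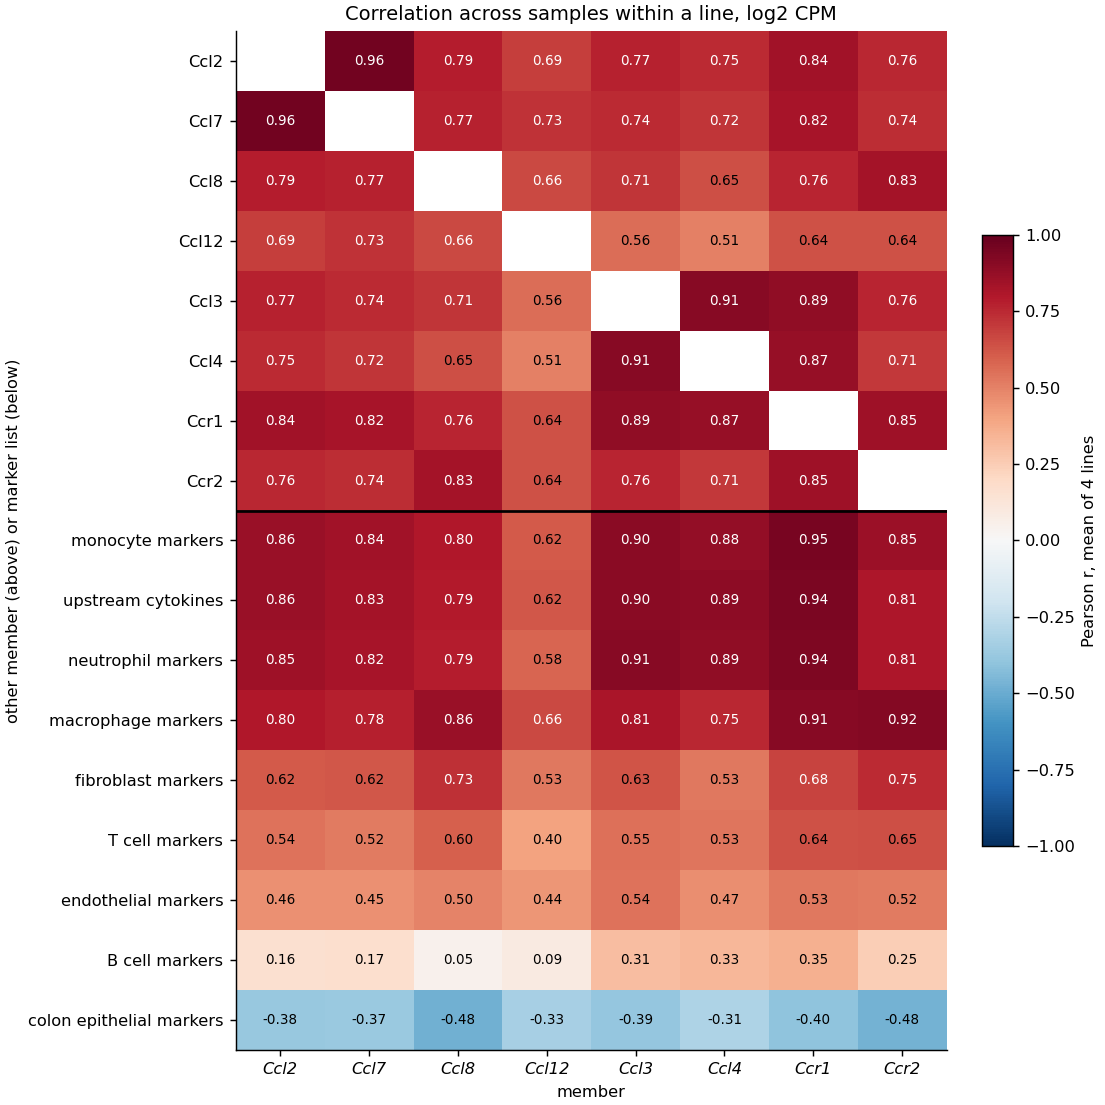
Pearson r across the samples of a line, averaged over 4 lines, between each of the 8 genes (columns) and the other genes or the mean log2 CPM of marker lists (rows). The darkest cell is that of *Ccl2* with *Ccl7* (0.96), the row of monocyte markers runs from 0.62 for *Ccl12* to 0.95 for *Ccr1*, and the row of colonic epithelial markers is negative for all 8 genes.

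The genes most like each member were ranked by mean r over the 4 lines in 160 samples, with the 8 members themselves left out of the lists and with no test. For *Ccl2* they were *Gm49339* (0.895), the unnamed gene ENSMUSG00000089672 (0.889), *Ms4a6d* (0.885), *Timp1*, an inhibitor of matrix metalloproteinases (0.884), and the adhesion molecule *Icam1* (0.878). For *Ccl7* they were *Gm49339* (0.878), *Ctps*, a CTP synthase (0.878), the chemokine *Ccl9* (0.874), the TNF receptor *Tnfrsf1a* (0.871) and *Timp1* (0.869). For *Ccl8* they were the inhibitory Fc receptor *Fcgr2b* (0.890), *Aoah*, which inactivates lipopolysaccharide (0.871), the lectins *Clec4a3* (0.870) and *Clec7a* (0.870), and the complement component *C1qc* (0.866). For *Ccl12* the values were lower, with *Clec4n* (0.714), *Fcgr2b* (0.708), *Cxcl16* (0.708), *Gm2245* (0.702) and the scavenger receptor *Msr1* (0.698).

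For *Ccl3* the most alike genes were the inflammasome sensor *Nlrp3* (0.918), *Gm49339* (0.906), *Plek* (0.905), *Acod1*, the enzyme that makes itaconate (0.898), and *Srgn*, a granule proteoglycan (0.895). For *Ccl4* they were *Acod1* (0.894), *Nlrp3* (0.893), *Ifitm1* (0.882), *Plek* (0.880) and *Srgn* (0.879). *Ccr1* was closest to *Srgn* (0.963), *Plek* (0.959), *Tlr13* (0.958), *Slc15a3* (0.957) and *Pirb* (0.955). *Ccr2* was closest to *Clec4a3* (0.934), *Myo1f* (0.921), *Clec4a1* (0.918), *Mpeg1*, a pore-forming protein of macrophages (0.912), and *Nfam1* (0.912). Among the members themselves, *Ccl7* ranked first for *Ccl2* and for *Ccl12*, *Ccl2* first for *Ccl7*, and *Ccl3* first for *Ccl4*. *Ccl4* ranked 2 for *Ccl3* (0.911). The closest member ranked 42 for *Ccl8* (*Ccr2*), 100 for *Ccr2* (*Ccr1*) and 162 for *Ccr1* (*Ccl3*), and the most distant pair was *Ccl12* for *Ccl4*, at 2035 of 17067 genes, so that many other genes were more alike than most members were to each other.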

How the data were processed

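Libraries of distal colon RNA from 160 mice were made with a stranded kit after ribosomal depletion. The submitters' processing notes name STAR, Subread, featureCounts and mm10, and the authors deposited raw counts per Ensembl gene, without normalization. Versions and the strand setting of counting are not given in the sources used here. Symbols were matched through GENCODE M21 for GRCm38 to 37607 of 39179 IDs (99.67% of counts), and counts were scaled to CPM by TMM library sizes.

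Groups came from the labels, and replicate numbers follow accession order. Each line was fitted on all genes with edgeR 4.0.16 (filterByExpr, TMM, quasi-likelihood test, genotype, with sex in the *Nckap1l* and *Dock2* lines, Benjamini-Hochberg, threshold 0.05). Alternatives used DESeq2 1.42.0, limma-voom 3.58.1, sva 3.50.0, RLE size factors, no filter, a stricter threshold, fewer samples and other covariates. Log2 CPM used a prior count of 2. Tested on simulated data, the 6 fits recovered 92.0% to 98.5% of 200 genes changed by 1.5 on the log2 scale. Of the calls made there 0.508% to 6.53% were false, with 6.12% (genotype) and 6.53% (sex) in the *Nckap1l* line. The changed genes were drawn at random from all genes of a line. Their change was larger than the genotype estimate of every member tested, at most 1.32 ± 0.52 for *Ccl8* in the *Nckap1l* line. The recovery of smaller changes, or of changes in the members themselves, was not tested. The share of such changes recovered in the real samples, where treated and untreated mice are pooled, was not tested. All 8 members are named. Of the 3 lists of related genes, those past the test are named, otherwise the 2 with the smallest p in each line, and for each member the 5 most alike genes. The members and lists were chosen with earlier results of these data known. Samples with skin RNA (over 200 CPM) were left out only in an alternative chosen after seeing the data. No 2 samples of a group agreed within sampling noise. P-values measure the spread between the mice sampled, whose litters and cages are not given.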

Additional observations from a re-analysis of the deposited data

Results flagged for a closer look

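*Ccr6*, a receptor listed beside the members, was the gene of the 3 related lists whose genotype effect differed between lines in the fit of all 160 samples (edgeR, adjusted p = 0.02725). Its log2 fold change of knockout over wild type was -2.00 ± 0.61 for *Nckap1l*, -0.75 ± 0.24 for *Dock2*, 0.63 ± 0.35 for *Gpsm3* and -0.04 ± 0.28 for *Dok3*, and none of the 4 passed the test within its line. The adjusted p was 0.0277 with RLE size factors, 0.0331 without the count filter, 0.510 in males only and 1.00 with limma-voom. The medians of the 7 B cell markers had the same sign as *Ccr6* in each line, at -2.58, -0.89, 0.58 and -0.16 in that order, and the part of B cells in the *Ccr6* values was not tested.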

How the results depend on the processing

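Of 131 alternative values of the counts and medians, 104 remained within 1.5 times or 1 SD of the reported one. In the *Nckap1l* line the count of members called between genotypes went from 0 to 1 (*Ccl8*) with 2 surrogate variables, where 0.518% of all genes were called. For the comparison of sexes in the *Dock2* line, the share of all genes called is in brackets. The count of 2 (9.75%) went to 5 with DESeq2 (12.2%), 1 with limma-voom (9.07%) and 5 with 2 surrogate variables (20.3%). It went to 0 with a threshold of 0.01 (2.86%), the neutrophil score (10.3%) or wild type only (2.06%). It was 6 without samples with skin RNA (18.3%), and 0 to 6 with each sample left out in turn (7.55% to 12.6%), both chosen after seeing the data. *Ccl3* passed the count filter in 12 of the fits that left out 1 sample, each without a knockout sample. Signs turned in 3 of 362 single values: *Ccl8* in the *Nckap1l* line went to -0.35 within the second run of sample numbers and to -0.68 without skin RNA, and *Ccr1* by sex in the *Dock2* line to 0.20 with the neutrophil score. The cause was not tested. Of 352 values of the members that reached no unadjusted p under 0.05 between genotypes or, in the *Nckap1l* line, between sexes, 69 had another sign and 0 an adjusted p under 0.05. The count in the other comparisons stayed at 0, and the overall median correlations of pairs of members (0.731 to 0.759) and with lists (0.606 to 0.671) were within 1 SD of the reported ones under each alternative run.

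Limits come mainly from design and depth. Treated and untreated mice are pooled, and how much of the spread within a group comes from treatment was not tested. *Ccl3* and *Ccl4* lie near the detection limit in many samples, where differences could not be detected. No paired analysis was possible because the labels give no replicate numbers shared between groups.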
